A study of Homo sapiens with 3 samples.

Results

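The 43 genes described here serve DNA replication and the passage of cells from G1 into S phase. They were taken from the deposited count table by gene symbol, and all 43 were found among its 24424 genes. The table came from A375SM, a metastatic subline of the human melanoma line A375. Cells were infected with lentiviral vectors that carry a green fluorescent reporter, and reporter-positive cells were kept as stable populations. 3 populations were sequenced, with 1 library each. The shPRAME population carried a hairpin against PRAME, and the shBAP1 population a hairpin against BAP1. The shEmpty population is the control. Its name points to a vector without a hairpin, the design text speaks of a non-targeting hairpin, and its genotype is given as WT. All 3 populations therefore share infection, the reporter and the selection for it. Each target was lowered in 1 population with 1 hairpin, so what a hairpin does to its target and what it may do elsewhere cannot be told apart. The comparisons ask how the transcripts in each knockdown differ from those of the control.

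Replication begins with licensing. In G1 the origin recognition complex, CDC6 and CDT1 load the ring-shaped MCM2-7 helicase onto DNA. At the start of S phase, kinases drive CDC45 and the GINS complex onto that ring, and the active helicase then opens the strands for the polymerases. E2F transcription factors switch on most genes of this machinery once cyclin-dependent kinases have released them from the retinoblastoma protein family. The messengers of many of these genes are known to peak near the G1/S boundary. In bulk RNA, fewer cells in S phase and less of these messengers per cell cannot be told apart.

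The libraries held 19430130 counts in shEmpty, 14181829 in shBAP1 and 18456328 in shPRAME. Levels are given as CPM, the count a gene would have in a library of 1000000 counts. Library sizes were first scaled with TMM factors, which make the bulk of genes comparable between libraries. With 1 library a group there is no replicate check and no p-value. A gene is called lower or higher where the ratio of scaled counts reached 2-fold and its exact 95% interval did not include no change. These calls describe 3 libraries rather than conditions. Intervals are given in brackets and cover counting error alone. A mean count of 50 or more was required, which 11956 genes met, among them every one of the 43, with counts between 80 and 8090. PRAME stood at 327 CPM in shEmpty, 455 in shBAP1 and 108 in shPRAME, and BAP1 at 100.0 CPM in shEmpty, 35.2 in shBAP1 and 97.9 in shPRAME, so each was lowest in the library with its own hairpin. The summed level of 8 melanocyte lineage markers was 899 CPM in shEmpty, 1016 in shBAP1 and 816 in shPRAME. SOX10 stood at 506 CPM in shEmpty, 367 in shBAP1 and 657 in shPRAME, and MITF at 309.9 CPM in shEmpty, 239 in shBAP1 and 114 in shPRAME, both lower in shBAP1 than in the control. The other 6 were highest in shBAP1: S100B stood at 72.4 CPM in shEmpty, 186 in shBAP1 and 43.2 in shPRAME, TYRP1 had 0, 1037 and 1 counts in that order, TYR 4, 573 and 0, and DCT 192, 1668 and 6. PMEL and MLANA had at most 34 counts in any library. The summed level of 7 fibroblast markers was 41.0 CPM in shEmpty, 213 in shBAP1 and 721 in shPRAME, of which COL1A2 made up 6.35, 170.3 and 670.0 CPM. COL1A1 had 1, 3 and 23 counts and THY1 0, 3 and 4 in that order. The remaining fibroblast markers did not follow the order of the sum. DCN, with 20, 40 and 49 counts, stood at 1.07 CPM in shEmpty, 2.69 in shBAP1 and 2.68 in shPRAME. PDGFRA was lowest in shBAP1, at 263, 33 and 447 counts. COL3A1 (1, 66 and 13 counts) and LUM (364, 483 and 399 counts) were highest there. 6 immune markers summed to 2.35, 3.503 and 5.91 CPM, with 3, 3 and 1 of them at 0 counts in the same order. The 6 keratinocyte markers (34.5, 53.7 and 27.5 CPM, nearly all KRT10) and 5 endothelial markers (79.2, 12.3 and 31.6 CPM, nearly all KDR) were in other orders. The part of these differences in the results below was not tested.

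The replication genes were lowest in shPRAME and intermediate in shBAP1. Together the 43 genes took 88017 counts in shEmpty, 45303 in shBAP1 and 31179 in shPRAME. That is 0.453% (0.450 to 0.456), 0.319% (0.317 to 0.322) and 0.169% (0.167 to 0.171) of each library, with exact Poisson intervals. For 40 of the 43 genes the order of the levels was shPRAME, then shBAP1, then shEmpty from lowest to highest. GINS4 and TK1 were lowest in shBAP1, and MCM3 was highest there. With scaling by total counts GINS3 in shBAP1 lay above the control, at a log2 ratio of 0.05, and TK1 in shPRAME below shBAP1, at -0.01. Neighbours in this order were not always separated by counting error: the intervals of GINS3 and RFC4 in shBAP1 against shEmpty, and of LIG1 and TK1 in shPRAME against shBAP1, included no change.

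**Figure D1:**
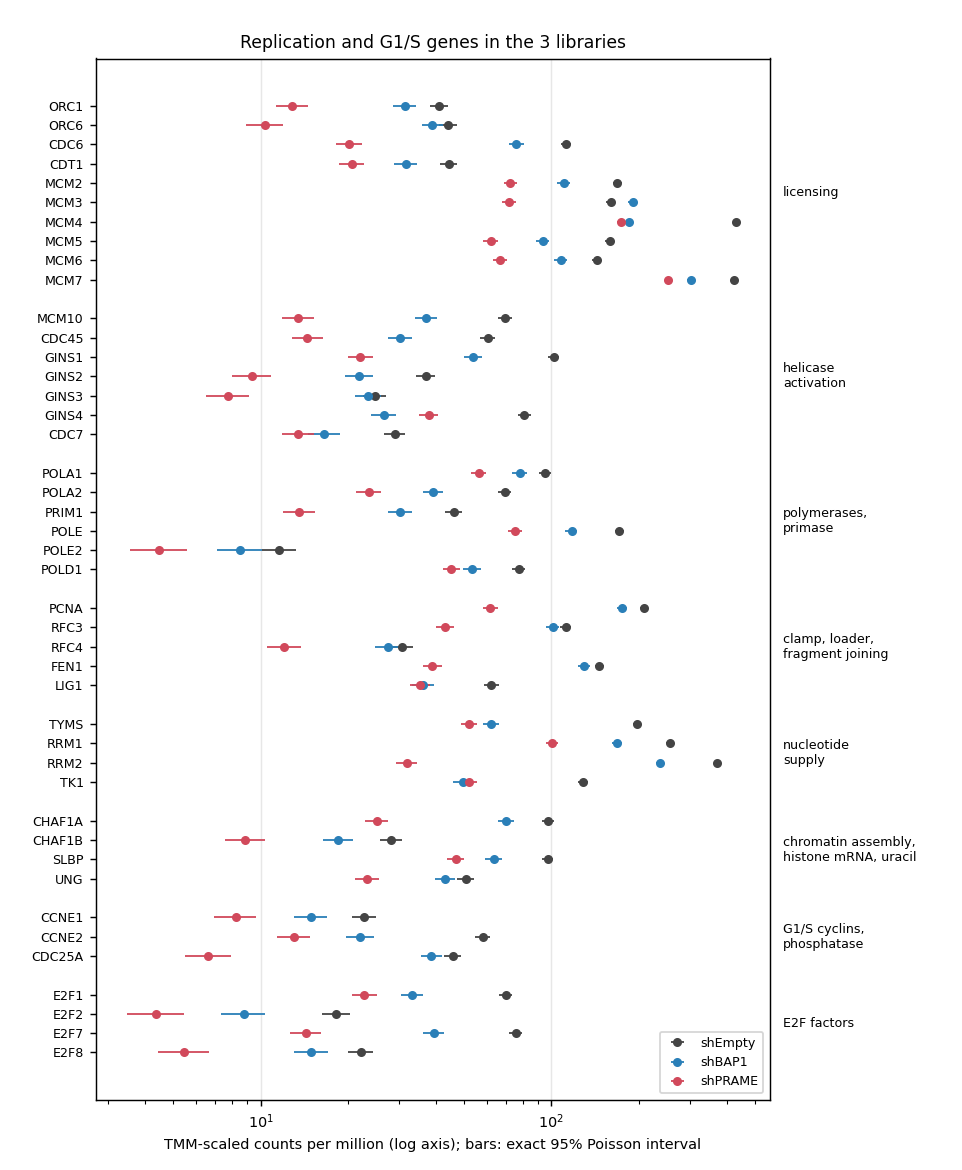
Level of each of the 43 genes in the 3 libraries, in CPM on a log axis, grouped by role, with exact 95% Poisson intervals as bars. The shPRAME points lie left of the shEmpty points for all 43 genes, and the shBAP1 points lie between them for 40.

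In shPRAME against shEmpty, 39 of the 43 genes were called lower, none higher and 4 neither. Of all 11956 measured genes 9.08% were called lower and 10.2% higher in that comparison. The median log2 ratio of the 43 was -1.55, a 2.93-fold lower level, against -0.06 over all measured genes. Single genes ranged from -3.54 to -0.75, so the gene nearest to the control was still below it.

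Against the same control, 8 of the 43 genes were called lower in shBAP1, none higher and 35 neither. Over all measured genes 8.56% were called lower and 5.53% higher. The median log2 ratio of the 43 was -0.61, or 1.52-fold lower, against -0.03 over all measured genes. 40 of the 43 had intervals wholly below no change and 1 (MCM3) wholly above it. The shift in shBAP1 was therefore mostly smaller than the 2-fold limit, and the count of calls depended on settings. It was 5 with scaling by total counts or by upper quartiles, under which CDC45, E2F1 and E2F2 were no longer called, and 23 with a limit of 1.5-fold. The same settings called 837, 900 and 2123 of all 11956 measured genes lower, in that order. Over all genes, scaling by total counts shifted the median log2 ratio by 0.12, and higher genes then made up 49.8% of all calls in place of 39.2%. Both comparisons use the same shEmpty library, so a count that happened to be high in it enters both.

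**Figure D2:**
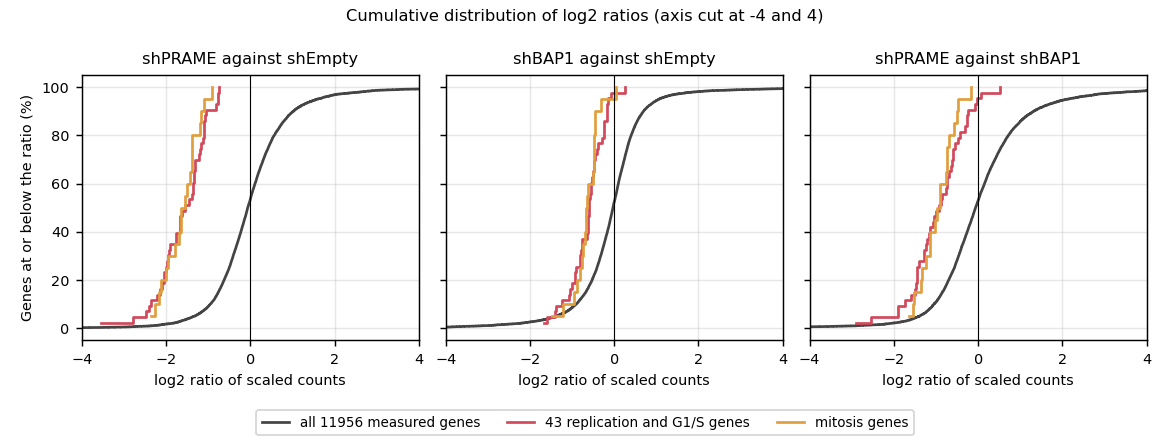
Cumulative share of genes (vertical axis, %) at or below each log2 ratio of scaled counts (horizontal axis, cut at -4 and 4) for the 3 comparisons. At its median the curve of the 43 replication and G1/S genes lies left of the curve of all 11956 measured genes, with medians of -1.55 in shPRAME and -0.61 in shBAP1 against shEmpty, and runs beside that of 20 mitosis genes.

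Among the licensing genes, 3 of the 4 loaders had lower ratios in shPRAME than any subunit of the helicase ring. CDC6, the ATPase that recruits the ring to origins, stood at 112 CPM in shEmpty, 75.6 in shBAP1 and 20.1 in shPRAME. It was 5.58-fold lower (4.99 to 6.25) in shPRAME and had a ratio of 0.674 (0.626 to 0.725) in shBAP1. CDC6 was thus low in shPRAME and only modestly below the control in shBAP1. ORC6, the smallest subunit of the origin recognition complex, showed the same split, at 44.1 CPM in shEmpty, 38.9 in shBAP1 and 10.3 in shPRAME. It was 4.27-fold lower (3.64 to 5.03) in shPRAME. ORC1, the large ATPase subunit of that complex, stood at 41.1 CPM in shEmpty, 31.3 in shBAP1 and 12.9 in shPRAME and was 3.20-fold lower (2.76 to 3.72) in shPRAME. CDT1, which brings the ring to CDC6, was nearer to the control, at 44.4 CPM in shEmpty, 31.5 in shBAP1 and 20.6 in shPRAME.

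The 6 subunits of the MCM2-7 ring were called lower in 5 cases in shPRAME and in 1 case in shBAP1. Their log2 ratios in shPRAME ran from -1.36 (MCM5) to -0.75 (MCM7), a narrow span beside that of the loaders. MCM7 stood at 425 CPM in shEmpty, 302 in shBAP1 and 252 in shPRAME, and its ratio of 0.594 (0.572 to 0.616) in shPRAME was the closest to no change among the 43 genes. In shBAP1 the subunits of the same ring spread further. MCM4 stood at 432 CPM in shEmpty, 184 in shBAP1 and 174 in shPRAME and was 2.35-fold lower (2.25 to 2.45) in shBAP1. It lies on chromosome 8, whose genes were low as a whole in that library. MCM3 stood at 159.7 CPM in shEmpty, 190.2 in shBAP1 and 71.4 in shPRAME, and its ratio in shBAP1 was 1.19 (1.13 to 1.25). The ring's subunits, which work at 1 copy each, thus lay on both sides of the control in that library, but MCM3 was below it, at a log2 ratio of -0.15, with chromosome medians subtracted. MCM2 (168 CPM in shEmpty, 110.1 in shBAP1 and 72.3 in shPRAME), MCM5 (159 CPM in shEmpty, 93.2 in shBAP1 and 61.8 in shPRAME) and MCM6 (143 CPM in shEmpty, 108 in shBAP1 and 66.6 in shPRAME) lay between them, and the call of MCM6 in shPRAME was lost with that step.

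All 7 genes that turn the loaded ring into an active helicase were called lower in shPRAME, with a median log2 ratio of -1.98. MCM10, which is needed for the helicase to start unwinding, stood at 69.4 CPM in shEmpty, 37.0 in shBAP1 and 13.5 in shPRAME and was 5.16-fold lower (4.50 to 5.93) in shPRAME. CDC45, the helicase cofactor, stood at 60.5 CPM in shEmpty, 30.1 in shBAP1 and 14.5 in shPRAME and was 4.17-fold lower (3.65 to 4.79) in shPRAME. Both were intermediate in shBAP1, and CDC45 was called there at 2.01-fold lower, just past the limit.

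The GINS complex has 4 subunits and joins CDC45 to the ring. Its subunits had unequal ratios in the 2 knockdown libraries. GINS1 stood at 102 CPM in shEmpty, 53.7 in shBAP1 and 22.04 in shPRAME, and GINS2 at 36.9 CPM in shEmpty, 21.8 in shBAP1 and 9.35 in shPRAME. They were 4.62-fold lower (4.15 to 5.16) and 3.95-fold lower (3.34 to 4.70) in shPRAME, and neither was called in shBAP1. GINS3 stood at 24.7 CPM in shEmpty, 23.4 in shBAP1 and 7.71 in shPRAME, 3.20-fold lower (2.64 to 3.89) in shPRAME with no difference beyond counting error in shBAP1. GINS4 had the reverse order, at 80.6 CPM in shEmpty, 26.5 in shBAP1 and 37.9 in shPRAME, and was 3.04-fold lower (2.72 to 3.401) in shBAP1 and 2.13-fold lower (1.94 to 2.33) in shPRAME, the latter lost with upper-quartile scaling. GINS4 and GINS3 were thus the subunits with the lowest and the highest ratio in shBAP1, at log2 ratios of -1.60 and -0.07. CDC7, the kinase that phosphorylates the ring, stood at 28.9 CPM in shEmpty, 16.6 in shBAP1 and 13.5 in shPRAME.

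Of 6 polymerase and primase genes, 4 were called lower in shPRAME and none in shBAP1. PRIM1, the catalytic primase subunit that lays the RNA primers, stood at 46.2 CPM in shEmpty, 30.1 in shBAP1 and 13.6 in shPRAME and was 3.41-fold lower (2.96 to 3.94) in shPRAME. POLA2, the regulatory subunit of polymerase alpha, stood at 69.0 CPM in shEmpty, 39.2 in shBAP1 and 23.5 in shPRAME and was 2.93-fold lower (2.63 to 3.28). The catalytic subunits of polymerases alpha and delta were the least different. POLA1 stood at 95.3 CPM in shEmpty, 77.9 in shBAP1 and 56.2 in shPRAME, and POLD1 at 77.2 CPM in shEmpty, 53.5 in shBAP1 and 45.3 in shPRAME, with log2 ratios in shPRAME of -0.76 and -0.77 that missed the 2-fold limit. The leading-strand polymerase POLE (171 CPM in shEmpty, 117 in shBAP1 and 74.9 in shPRAME) and its subunit POLE2 (11.6 CPM in shEmpty, 8.49 in shBAP1 and 4.49 in shPRAME) were called lower in shPRAME, by 2.28-fold and 2.58-fold, the call of POLE being lost with chromosome medians subtracted.

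Clamp and fragment-trimming genes were low in shPRAME and close to the control in shBAP1. PCNA, the sliding clamp that tethers polymerases to DNA, stood at 208 CPM in shEmpty, 175 in shBAP1 and 61.6 in shPRAME and was 3.38-fold lower (3.16 to 3.61) in shPRAME. FEN1, the nuclease that trims Okazaki fragments, stood at 146 CPM in shEmpty, 129 in shBAP1 and 38.9 in shPRAME and was 3.75-fold lower (3.45 to 4.08) in shPRAME. Both were close to the control in shBAP1, with ratios of 0.841 (0.800 to 0.884) and 0.885 (0.834 to 0.938). The clamp loader subunits RFC3 (112 CPM in shEmpty, 101 in shBAP1 and 42.99 in shPRAME) and RFC4 (30.7 CPM in shEmpty, 27.3 in shBAP1 and 12.1 in shPRAME) followed that pattern. LIG1, the ligase that seals the fragments, did not: it stood at 62.1 CPM in shEmpty, 36.2 in shBAP1 and 35.4 in shPRAME, and its level in the 2 knockdown libraries did not differ beyond counting error, at a ratio of 0.980 (0.873 to 1.10).

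Genes of nucleotide supply held the lowest ratio in each comparison with the control. RRM2 encodes the small subunit of ribonucleotide reductase, which makes deoxynucleotides and is limiting in S phase. It stood at 370.3 CPM in shEmpty, 237 in shBAP1 and 31.8 in shPRAME, and was 11.7-fold lower (10.7 to 12.7) in shPRAME and had a ratio of 0.639 (0.613 to 0.666) in shBAP1. RRM1, the large subunit of the same enzyme, stood at 256 CPM in shEmpty, 168 in shBAP1 and 101 in shPRAME and was 2.54-fold lower (2.41 to 2.68) in shPRAME. The shPRAME ratios of the 2 subunits therefore lay far apart and their counting intervals did not overlap, whereas in shBAP1 they were 0.657 (0.625 to 0.689) for RRM1 and near that of RRM2. TYMS, the thymidylate synthase that 5-fluorouracil inhibits, stood at 197 CPM in shEmpty, 62.0 in shBAP1 and 52.1 in shPRAME. It was 3.79-fold lower (3.53 to 4.08) in shPRAME and 3.18-fold lower (2.96 to 3.42) in shBAP1, the lowest ratio of the 43 in the latter. TYMS shares exon bases with ENOSF1 on the other strand and lies on chromosome 18, whose genes were low as a whole in both knockdown libraries. TK1, the salvage kinase for thymidine, stood at 128 CPM in shEmpty, 49.5 in shBAP1 and 51.9 in shPRAME, and was 2.47-fold lower (2.29 to 2.67) in shPRAME and 2.59-fold lower (2.39 to 2.82) in shBAP1. Both thymidine nucleotide genes were thus low in both knockdown libraries.

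The genes of chromatin assembly, histone messenger binding and uracil removal were called lower in shPRAME in all 4 cases and in none in shBAP1. CHAF1A and CHAF1B encode subunits of chromatin assembly factor 1, which places histones on new DNA. CHAF1A stood at 97.6 CPM in shEmpty, 69.9 in shBAP1 and 25.1 in shPRAME, and CHAF1B at 28.1 CPM in shEmpty, 18.5 in shBAP1 and 8.86 in shPRAME, and they were 3.89-fold lower (3.51 to 4.31) and 3.17-fold lower (2.65 to 3.802) in shPRAME. SLBP, which binds the stem-loop of histone messengers, stood at 97.0 CPM in shEmpty, 63.3 in shBAP1 and 46.9 in shPRAME, and UNG, the uracil-DNA glycosylase, at 50.7 CPM in shEmpty, 42.98 in shBAP1 and 23.3 in shPRAME. Their differences in shPRAME were just past the limit, at 2.07-fold and 2.18-fold lower, and SLBP was no longer called with upper-quartile scaling. Neither was called with chromosome medians subtracted.

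CDC25A removes the inhibitory phosphate from CDK2 and had the second lowest ratio to shEmpty in shPRAME. It stood at 45.7 CPM in shEmpty, 38.7 in shBAP1 and 6.62 in shPRAME, and was 6.91-fold lower (5.71 to 8.43) in shPRAME with a ratio of 0.845 (0.759 to 0.941) in shBAP1. The E-type cyclins, which activate CDK2 at the G1/S boundary, were also lower. CCNE2 stood at 58.0 CPM in shEmpty, 21.96 in shBAP1 and 13.02 in shPRAME, and was 4.46-fold lower (3.87 to 5.15) in shPRAME and 2.64-fold lower (2.33 to 2.999) in shBAP1. CCNE1 stood at 22.7 CPM in shEmpty, 14.9 in shBAP1 and 8.20 in shPRAME, and was 2.76-fold lower (2.29 to 3.35) in shPRAME without a call in shBAP1.

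All 4 E2F genes of the set were called lower in shPRAME, the activators E2F1 and E2F2 as well as the repressors E2F7 and E2F8. E2F1 stood at 69.5 CPM in shEmpty, 33.2 in shBAP1 and 22.8 in shPRAME, and was 3.06-fold lower (2.73 to 3.42) in shPRAME and 2.09-fold lower (1.89 to 2.33) in shBAP1. E2F2 stood at 18.2 CPM in shEmpty, 8.76 in shBAP1 and 4.38 in shPRAME, and was 4.16-fold lower (3.25 to 5.37) and 2.08-fold lower (1.69 to 2.56) in that order. E2F7, which dampens E2F targets in S phase and is itself such a target, stood at 75.4 CPM in shEmpty, 39.3 in shBAP1 and 14.3 in shPRAME. It was 5.28-fold lower (4.63 to 6.05) in shPRAME and was not called in shBAP1, at a ratio of 0.522 (0.473 to 0.575). E2F8 stood at 22.1 CPM in shEmpty, 15.0 in shBAP1 and 5.47 in shPRAME, and was 4.04-fold lower (3.24 to 5.08) in shPRAME.

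**Figure D3:**
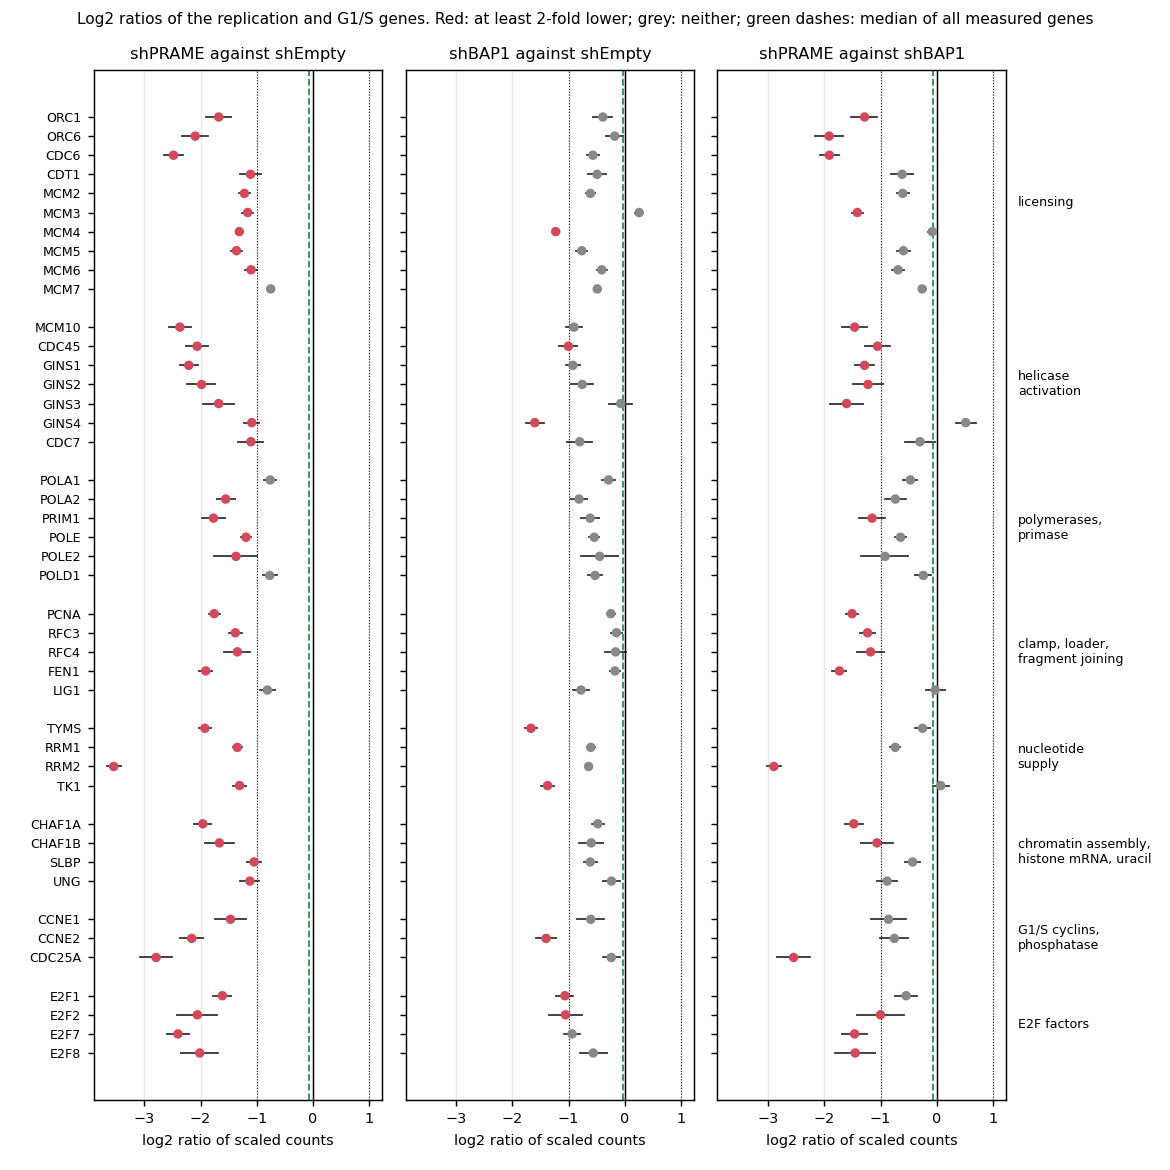
Log2 ratio of scaled counts (horizontal axis) of each of the 43 genes in the 3 comparisons, with exact 95% counting intervals, the 2-fold limits as dotted lines and the median of all measured genes as a green dashed line. Red points were called lower: 39 in shPRAME and 8 in shBAP1 against shEmpty, and 21 in shPRAME against shBAP1.

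The promoter windows of many of the 43 genes hold letters of an E2F motif. RefSeq windows of 300 bases (250 before to 50 after the start, GRCh38.p14) were matched by symbol for 38 genes, using the first window listed for each (8 of them have several). MCM4, MCM5, GINS4, CCNE2 and E2F8 had none. The motif was searched as TTTCCCGC, TTTGGCGC, TTTGCCGC or TTTCGCGC on both strands, and matches may overlap each other. It occurred in 20 of 38 windows (52.6%), against 908 of all 27305 symbols in the table (3.33%) and 5.51% of the 9126 measured genes with a window. The cell cycle homology letters TTTGAA, known from promoters of G2/M genes, occurred on either strand in 1 of the 38 (2.63%), against 15.4% of the 27305 symbols and 9.61% of the measured genes with a window. They occurred in 11 of 16 mitosis genes. The letters CCAAT, on either strand, occurred in 21 of the 38 (55.3%), against 35.7% and 37.5%. The median log2 ratio in shPRAME was -1.47 for the 20 genes with E2F letters and -1.67 for the 18 without. A match is a description of the letters, not of a bound site. Shown here, 5′ to 3′ on the gene's strand, are the last 150 bases before the start in 6 genes whose upstream stretch holds a match, with the E2F letters in capitals.
E2F1 (chr20:33686386-33686535, minus strand): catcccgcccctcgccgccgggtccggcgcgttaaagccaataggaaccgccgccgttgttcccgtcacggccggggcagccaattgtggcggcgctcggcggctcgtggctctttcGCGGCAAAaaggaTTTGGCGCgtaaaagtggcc
CDC25A (chr3:48188418-48188567, minus strand): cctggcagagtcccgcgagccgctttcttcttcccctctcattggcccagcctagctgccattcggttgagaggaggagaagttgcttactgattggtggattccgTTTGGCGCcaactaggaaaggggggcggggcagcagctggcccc
PCNA (chr20:5126623-5126772, minus strand): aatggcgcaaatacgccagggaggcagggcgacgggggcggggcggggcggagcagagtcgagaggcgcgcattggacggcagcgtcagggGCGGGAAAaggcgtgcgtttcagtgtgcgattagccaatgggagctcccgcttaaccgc
GINS2 (chr16:85688955-85689104, minus strand): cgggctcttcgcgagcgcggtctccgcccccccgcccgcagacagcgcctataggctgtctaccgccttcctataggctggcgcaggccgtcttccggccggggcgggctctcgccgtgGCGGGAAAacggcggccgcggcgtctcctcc
MCM6 (chr2:135876444-135876593, minus strand): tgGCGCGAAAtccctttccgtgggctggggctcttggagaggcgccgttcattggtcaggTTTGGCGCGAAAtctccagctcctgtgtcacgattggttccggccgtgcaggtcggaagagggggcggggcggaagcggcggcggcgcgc
CDT1 (chr16:88803639-88803788, plus strand): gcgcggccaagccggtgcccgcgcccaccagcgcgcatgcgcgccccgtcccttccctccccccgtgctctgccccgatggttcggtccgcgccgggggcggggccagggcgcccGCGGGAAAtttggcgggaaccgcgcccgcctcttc
E2F1 holds a pair of separate matches close to the start, and MCM6 holds overlapping matches farther upstream. In CDC6 the match begins 8 bases after the start.

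The knockdown libraries were also compared with each other. In shPRAME against shBAP1, 21 of the 43 genes were called lower, none higher and 22 neither, beside 10.9% lower and 14.2% higher among all measured genes. The median log2 ratio was -0.92, against -0.06 over all measured genes. RRM2 was 7.45-fold lower (6.82 to 8.14) in shPRAME than in shBAP1, and CDC25A 5.84-fold lower (4.79 to 7.17). ORC6 was 3.77-fold lower (3.19 to 4.46), CDC6 3.76-fold lower (3.34 to 4.24) and FEN1 3.32-fold lower (3.04 to 3.62). Loaders, a nuclease of fragment joining, the CDK2 phosphatase and the small reductase subunit thus stood furthest below shBAP1. At the other end LIG1, TK1 and MCM4 had ratios near 1, of 0.980 (0.873 to 1.10), 1.05 (0.951 to 1.16) and 0.946 (0.898 to 0.996). MCM4 lies on chromosome 8, whose measured genes had a median log2 ratio of 0.53 in this comparison. With chromosome medians subtracted MCM4 stood at a log2 ratio of -0.61, LIG1 at -0.14 and TK1 at -0.04. E2F2 lay at the limit, at a ratio of 0.500 (0.373 to 0.665), and was not called with upper-quartile or DESeq2 scaling or with chromosome medians subtracted. That last step also took the calls of MCM3, PRIM1, RFC3 and CHAF1B, at log2 ratios of -0.99, -0.99, -0.43 and -0.82. CCNE2 was then called lower, at -1.28. Of all 11956 measured genes 1068 were called lower in this comparison with that step. GINS4 was higher in shPRAME, at a ratio of 1.43 (1.26 to 1.62) that missed the limit. With chromosome medians subtracted its log2 ratio was -0.01. This comparison reuses the libraries of the other comparisons and adds no independent measurement.

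Some values moved with the chromosome a gene lies on. In shBAP1 the 432 measured genes of chromosome 8 had a median log2 ratio of -0.54 and the 165 of chromosome 18 one of -0.62, against -0.03 over all genes. MCM4, GINS4 and CCNE2 lie on chromosome 8 and TYMS on chromosome 18, and these are 4 of the 8 genes called lower in shBAP1. The 586 genes of chromosome 6, where MCM3 lies, had a median of 0.40. With chromosome medians subtracted, a step added after the data were seen, 4 genes remained called lower in shBAP1: GINS4 (-1.06), TYMS (-1.05), TK1 (-1.40) and E2F2 (-1.03). Of all 11956 measured genes 914 were called lower in shBAP1 with that step. MCM4 was then at -0.69 and CCNE2 at -0.86, and MCM3 changed sign to -0.15. In shPRAME chromosome 13 (-0.63) and chromosome 18 (-0.68) were low and chromosome 7 high (0.39). With that step RFC3, on chromosome 13, stood at -0.75 in shPRAME and was not called, nor were MCM6 (-0.95), POLE (-0.85), SLBP (-0.92) and UNG (-0.78), while MCM7, on chromosome 7, was called at -1.14. In all 35 of the 43 were then called lower in shPRAME, beside 901 of all 11956 measured genes. DNA copy number was not measured here, and its part in these values was not tested.

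Exons of 8 of the 43 genes overlap exons of a gene on the other strand in GENCODE release 29. The libraries were directional, but it is not stated whether counting used the strand, so these values are uncertain. The longest overlaps were TYMS with ENOSF1 (58.2% of TYMS exon bases) and CCNE2 with INTS8 (47.5%). ENOSF1 had 3353 counts in shEmpty, 1205 in shBAP1 and 830 in shPRAME, a log2 ratio of -1.98 in shPRAME and -1.14 in shBAP1. INTS8 had 1146, 764 and 1025 counts, a log2 ratio of -0.13 and -0.25, near those of most genes.

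Many other genes of the replication machinery were lower in shPRAME too. Of 56 further replication genes, all measured, 31 were called lower in shPRAME, 1 higher and 24 neither, with a median log2 ratio of -1.03, beside 9.08% lower and 10.2% higher among all measured genes. CLSPN, an adaptor of the replication checkpoint, stood at 108 CPM in shEmpty, 85.5 in shBAP1 and 18.8 in shPRAME and was 5.74-fold lower (5.11 to 6.45) in shPRAME. DTL, which marks CDT1 for destruction, was 5.41-fold lower (4.91 to 5.97). DNA2, a nuclease of lagging-strand synthesis, was 4.12-fold lower (3.399 to 5.02). The only gene called higher, POLD4, the smallest subunit of polymerase delta, stood at 21.9 CPM in shEmpty, 20.1 in shBAP1 and 72.3 in shPRAME and was chosen after its value was seen. In shBAP1, 6 of the 56 were called lower, 2 higher and 48 neither, with a median of -0.29. The shares called were near those over all measured genes, 8.56% lower and 5.53% higher. RECQL4, a helicase of replication initiation, was 3.43-fold lower (3.11 to 3.78), RNASEH2A, the catalytic subunit of ribonuclease H2, 2.32-fold lower (2.07 to 2.59), and DTL 2.22-fold lower (2.06 to 2.39). DSCC1 (2.13-fold) and ASF1B (2.01-fold) were also called lower and were chosen after their values were seen. RECQL4 and DSCC1 lie on chromosome 8. SAMHD1, which degrades deoxynucleotides, was 2.63-fold higher (2.20 to 3.16), and the histone chaperone ASF1A, also chosen after its value was seen, 2.21-fold higher (1.98 to 2.47).

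The partners and pocket proteins of the E2F factors were split between higher and lower values. Of 14 genes of E2F partners, pocket proteins and the DREAM complex, a repressor of cell cycle genes, 3 were called lower and 1 higher in shPRAME (median -0.57), beside 9.08% and 10.2% of all measured genes. MYBL2 was 4.98-fold lower (4.57 to 5.42) in shPRAME. The E2F partner TFDP1, on chromosome 13, was 2.79-fold lower (2.63 to 2.95) and the DREAM subunit LIN9 2.26-fold lower (1.89 to 2.70). E2F5, a repressor-type member, was 3.13-fold higher (2.41 to 4.09). In shBAP1, 1 was called lower and 3 higher (median 0.21), beside 8.56% and 5.53%. RB1, the retinoblastoma gene, stood at 77.7 CPM in shEmpty, 163 in shBAP1 and 70.0 in shPRAME and was 2.11-fold higher (1.97 to 2.25) in shBAP1. E2F4, the main E2F of resting cells, was 2.03-fold higher (1.88 to 2.20) and E2F5 2.02-fold higher (1.51 to 2.72), while MYBL2 was 2.12-fold lower (1.98 to 2.26). The calls of E2F4 and E2F5 lay just past the limit.

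Among 12 G1 cyclins, kinases and inhibitors, 10 were measured, and 3 were called in each comparison with shEmpty, where 19.3% of all measured genes were called in either direction in shPRAME and 14.1% in shBAP1. CCND1, cyclin D1, stood at 558 CPM in shEmpty, 134 in shBAP1 and 844 in shPRAME and was 4.17-fold lower (3.98 to 4.38) in shBAP1. CDK6, a kinase partner of the D cyclins, stood at 93.8 CPM in shEmpty, 296 in shBAP1 and 58.0 in shPRAME and was 3.15-fold higher (2.98 to 3.33) in shBAP1. The CDK inhibitor gene CDKN1C (2.01-fold lower) was the second of 2 genes called lower in that library, and CDKN2C had a ratio of 0.534 (0.461 to 0.616). In shPRAME the kinase CDK4 was 2.35-fold lower (2.22 to 2.49) and the inhibitor CDKN2C 2.95-fold lower (2.52 to 3.46). CDKN2A, with 30, 21 and 102 counts in shEmpty, shBAP1 and shPRAME, was 3.48-fold higher (2.30 to 5.42). CDKN1C had a ratio of 1.94 (1.52 to 2.49) there. The list had 2 genes lower and 1 higher in each comparison with shEmpty, with medians of 0.19 in shPRAME and -0.72 in shBAP1. CCND2 and CDKN2B, with at most 3 counts in any library, were not measured.

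Most genes of mitosis were called lower in shPRAME. Of 20, all measured, 19 were called lower in shPRAME and 2 in shBAP1, with median log2 ratios of -1.59 and -0.66. The count in shBAP1 was near the 8.56% of all measured genes called lower there, and in shPRAME that share was 9.08%. NDC80, a kinetochore gene, was 5.11-fold lower (4.45 to 5.88) in shPRAME, the mitotic kinesin KIF23 4.80-fold lower (4.41 to 5.22), the transcription factor FOXM1 4.50-fold lower (4.19 to 4.84) and the kinase gene AURKA 4.32-fold lower (3.98 to 4.70). In shBAP1 CDK1, the mitotic kinase, was 2.80-fold lower (2.62 to 2.99) and NDC80 2.32-fold lower (2.08 to 2.60), while the proliferation marker MKI67 and the spindle motor KIF11 had ratios of 0.515 (0.500 to 0.531) and 0.545 (0.515 to 0.577). NDC80 lies on chromosome 18, whose measured genes had a median log2 ratio of -0.68 in shPRAME and -0.62 in shBAP1. The medians of the 43 replication genes were -1.55 in shPRAME and -0.61 in shBAP1 against shEmpty.

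**Figure D4:**
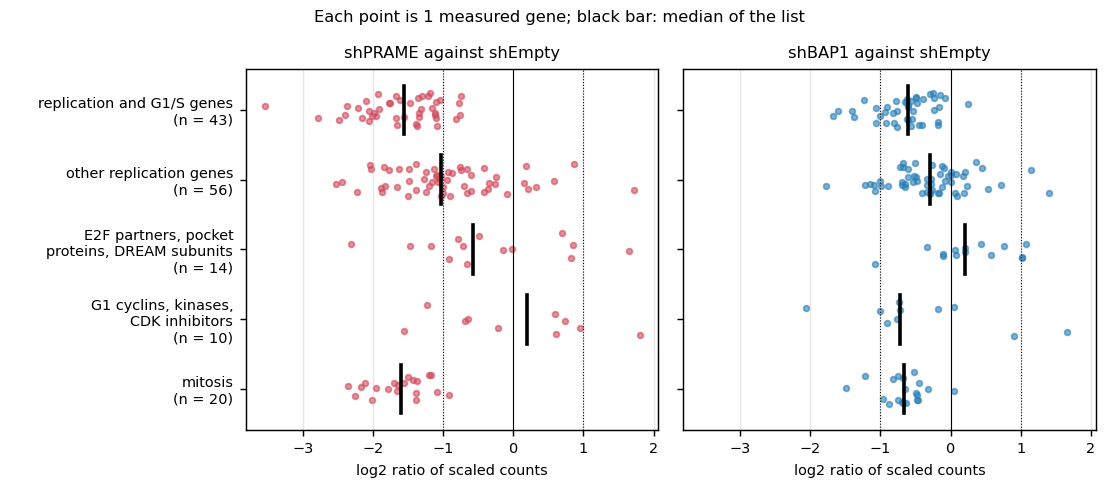
Log2 ratio of scaled counts of each measured gene (points) for the 43 replication and G1/S genes and 4 further lists, in shPRAME (left) and shBAP1 (right) against shEmpty, with list medians as black bars and vertical scatter for legibility only. The medians of the 43 genes (-1.55 and -0.61) lie near those of mitosis (-1.59 and -0.66) and below those of E2F partners, pocket proteins and DREAM subunits (-0.57 and 0.21).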

How the data were processed

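The values are whole-number read counts per gene, as deposited by the authors, with 1 library a group. The tools named are FastQC, TopHat, Cufflinks and edgeR, with the build hg19 (GRCh37), per the submitters' processing notes. How reads were counted, and on which annotation, is not given in the sources used here. Per the labels' protocols, libraries were directional, made from purified messenger RNA and sequenced as paired reads.

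TMM factors from edgeR 4.0.16 in R 4.3.3 set the library sizes. Log2 ratios used no pseudocount. A gene without a count was set to 3 counts in its ratio. Intervals were exact at 95% (conditional binomial for ratios, Poisson for levels), computed with Python 3.11.15, numpy 2.4.6, scipy 1.17.1, pandas 2.3.3 and matplotlib 3.10.9. Genes under a mean count of 50 were left out. The procedure was run on simulated Poisson counts. These hold counting error alone, so they cannot test variation between cell populations or libraries. Chromosomes came from RefSeq by symbol for 99.2% of measured genes.

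The members and lists were chosen with earlier results of these data known. Members were ranked by the interval bound that lies nearer to no change. The 10 with that bound farthest out were named in each comparison with shEmpty, and 5 in the direct one. The 3 with the ratio closest to no change were named in each comparison, with the other members given by role. Up to 4 genes of each further list were named by size of ratio, except 1 gene that is not reported here. Alternatives were other scalings (including DESeq2 1.42.0), count minima, fold limits and a pseudocount.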

Additional observations from a re-analysis of the deposited data

How the results depend on the processing

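No paired analysis was possible because each group was 1 library, and none could be left out. The median of the 43 genes stayed negative in all 3 comparisons under every scaling, count minimum and pseudocount tried, and no gene was called higher under any setting run. In shPRAME against shEmpty the count called lower was 21 with a limit of 3-fold, beside 399 of all 11956 measured genes. The median of the 43 was -1.38 with chromosome medians subtracted. In shBAP1 against shEmpty the count was 5 with total counts, 5 with upper-quartile factors, 23 at 1.5-fold and 2 at 3-fold. It was 5 with the whole interval beyond 2-fold and 4 with chromosome medians subtracted. Of all 11956 measured genes, 837, 900, 2123, 470, 684 and 914 were called lower under these settings, in that order. In shPRAME against shBAP1 the count was 32 at 1.5-fold and 6 at 3-fold, beside 2905 and 441 of all measured genes. The changes with the fold limit follow from its construction. For the shift with chromosomes the cause was not tested. A count minimum cannot change the ratio of a single gene, so single-gene values under the count minima stayed the same by construction. Of 272 values of single named genes, these included, 252 stayed within the counting interval of the reported value, 20 lay outside it and 3 changed sign. None of those 3 was a called gene: GINS3 in shBAP1 against shEmpty (0.05 with total counts) and TK1 in shPRAME against shBAP1 (-0.01 with total counts and -0.04 with chromosome medians subtracted). Outside that tally, MCM3 in shBAP1 against shEmpty (0.25 to -0.15) and GINS4 in shPRAME against shBAP1 (0.51 to -0.01) changed sign with chromosome medians subtracted. Neither was called, but the reported intervals of both left out no change. Depth limits the rarest messengers most: POLE2 had 82 counts in shPRAME and an interval of 1.99 to 3.37 around its 2.58-fold lower level.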

Other observations

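Over all measured genes with a promoter window, the E2F letters were set beside the ratios as a description. The 503 genes with them had a median log2 ratio of -0.24 in shPRAME against shEmpty, and 15.9% of them were called lower. These 503 include 20 of the replication and G1/S genes described above, of which 85% were called lower. They also include 10 of the further replication genes. Among the 8623 genes without the E2F letters the median was -0.07 and 8.77% were called lower. These include 18 of the replication and G1/S genes. In shBAP1 against shEmpty the medians were -0.07 and -0.01, with 5.17% and 7.99% called lower. The 877 genes with the cell cycle homology letters had a median of -0.20 in shPRAME, with 18% called lower, against 8.22% of the 8249 without them. In shBAP1 9.24% and 7.69% were called lower. The 877 genes include 11 genes of the mitosis list. The part of the listed genes in these medians and shares was not tested.

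Ribonucleotide reductase has a second small subunit, RRM2B, known as a p53 target that works outside S phase. It was chosen after its value was seen. It stood at 84.9 CPM in shEmpty, 85.0 in shBAP1 and 127 in shPRAME, a ratio of 1.495 (1.40 to 1.59) in shPRAME, in the library where RRM2 was 11.7-fold lower than in the control.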
